A study of Mus musculus with 6 samples.

Results

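The genes described here are 9 genes of retinol storage, retinol transport and retinoic acid: Lrat, Rbp4, Stra6, Crabp1, Crabp2, Aldh1a1, Aldh1a2, Aldh1a3 and Rarb. They were chosen by name, as a known trait of pancreatic stellate cells, out of 49671 genes counted per library. All 9 were found in the count tables, and all 9 passed the filter on low counts that left 15608 genes for testing. RNA sequencing was done on 6 libraries of sorted cells from mouse pancreatic tumours, 3 of a GFP fraction and 3 of a Tomato fraction. The hosts of both fractions were Rosa-mTmG; Fabp4-Cre mice on a C57BL/6J background. Cells of the mouse pancreatic cancer line FC1199 had been placed in their pancreas at 8 weeks of age, and the tumours were taken 4 weeks later, at 12 weeks of age, with no other treatment. In the Rosa-mTmG reporter, red Tomato protein is made by default and green GFP takes its place for good once Cre has acted. Cre was driven here by the promoter of Fabp4, a fatty acid carrier gene that is also active in fat cells and some endothelial cells and macrophages. Cells with Podoplanin on their surface were sorted by colour. The labels call the GFP fraction cancer-associated fibroblasts (CAFs) derived from stellate cells and the Tomato fraction CAFs of other origin, and they do not say whether libraries came from separate or pooled animals, so the spread behind the p-values is that of these samples and may be technical.

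Stellate cells of the healthy pancreas and liver store vitamin A. Retinol reaches a cell on the plasma carrier RBP4, can enter through the receptor STRA6, and is esterified by LRAT into retinyl esters that collect in lipid droplets. For signalling, retinol is oxidised to retinal and then, by the ALDH1A enzymes, to retinoic acid, which CRABP proteins carry in the cytosol and which acts on the nuclear receptors RARA, RARB and RARG paired with RXR. Activated stellate cells are known to lose their vitamin A droplets.

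Rarb is itself a classical target of retinoic acid, through a response element just before 1 of its transcription starts. The element is a direct repeat of a half-site (AGGTCA or GGGTCA, or with T as the third letter AGTTCA or GGTTCA) with 5 bases between the copies, and it is printed here because Rarb is the receptor among the 9 genes. The RefSeq promoter window of that start, 250 bases before to 50 bases after it, lies on the minus strand of GRCm38.p6 at chr14:16575427-16575726. In the window and in the elements the capitals mark the half-sites.
Rarb: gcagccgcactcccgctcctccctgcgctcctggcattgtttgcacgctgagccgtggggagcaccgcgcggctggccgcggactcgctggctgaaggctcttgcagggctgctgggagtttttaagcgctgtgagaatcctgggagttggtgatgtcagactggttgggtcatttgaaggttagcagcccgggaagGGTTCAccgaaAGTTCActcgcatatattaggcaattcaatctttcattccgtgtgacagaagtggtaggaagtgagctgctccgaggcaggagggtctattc
Rarb element: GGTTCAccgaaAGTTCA
Cyp26a1 element: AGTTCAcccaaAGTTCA
Both strands were searched for this repeat and for the same half-sites spaced by 1 or 2 bases. RefSeq windows were held for 7 of the 9 genes, 12 windows in all, and not for Crabp2 and Aldh1a3. Of these 7 genes, Rarb was the only gene with a match, at chr14:16575513-16575529, whose first base lies 53 bases before the start. Of 58 other retinoid pathway genes with a window, 1 had the repeat with 5 bases, Cyp26a1, which encodes a retinoic acid-degrading enzyme. That match lies on the strand opposite to the gene, at chr19:37697776-37697792. Its sequence is identical to the Rarb element at 15 of 17 bases and differs by G1A and G9C, counted from the 5′ end of the Rarb element. Across all 32851 promoter windows of this length, 0.0974% held the repeat with 5 bases, 0.222% the one with 1 base and 0.268% the one with 2 bases. A match is a stretch of letters and was not measured as a site in these cells, and counts per gene do not say which Rarb start was used.

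Total counts per library ran from 33378377 to 42154933, so that 3 reads correspond to 0.07 to 0.0895 CPM (a gene's reads relative to the library total, scaled by TMM, the trimmed mean of M-values). Libraries of equal number deviated together from their fraction means (correlations 0.487, 0.21 and 0.422 across genes), so a second fit took the number as a block. Fibroblast genes were abundant in both fractions, with summed levels of 129836 to 144520.1 CPM in GFP and 63566 to 96598 CPM in Tomato for 11 markers. Of these 11, 6 were higher in GFP and 0 lower. Marker lists of other cells also differed. Mesothelial markers were lower in GFP for 11 of 12 genes (summed 193 to 228 CPM in GFP and 1679 to 2058 CPM in Tomato), macrophage markers for 16 of 16 (158 to 251 against 1129 to 2831 CPM) and epithelial and cancer cell markers for 7 of 11 tested (119 to 150 against 588 to 729 CPM, sharing 3 keratins with the mesothelial list). Lymphatic endothelial markers were higher in GFP for 6 of 6 tested (319 to 506 against 26.1 to 81.7 CPM, with Ccl21a at 0 counts in all libraries). Of 12 markers of endothelium in general, 7 were higher and 1 lower (170.3 to 238 against 105 to 132 CPM). Of 10 pericyte and smooth muscle markers, 2 were higher and 1 lower (501 to 820.3 against 529 to 822 CPM). None of 7 acinar markers tested passed without a block (133 to 471 against 453 to 891 CPM, Amy2a2 at 0), and 7 were lower with it. Neither of 2 adipocyte markers tested passed (25.0 to 25.9 against 24.5 to 26.1 CPM for the list, Lep at 0), and the 1 hepatocyte marker tested was higher (13.6 to 17.1 against 7.03 to 9.07 CPM for the list). Their part in the results on retinoid genes was not tested.

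Of the 9 retinoid genes, Lrat rose and Aldh1a1 fell in the GFP fraction against Tomato, and 7 did not pass (edgeR quasi-likelihood test, adjusted p under 0.05 over all genes tested). Across all genes tested 28.9% were called, 13.1% as higher and 15.7% as lower, so 2 of 9 is no more than the background. With the library number as a block, 5 of the 9 were called, Lrat, Stra6 and Rarb as higher and Crabp2 and Aldh1a1 as lower, against 41.0% of all genes (20.1% higher and 20.9% lower). With offsets for transcript length and GC content the called genes were again Lrat and Aldh1a1, against 23.5% of all genes (9.74% higher and 13.8% lower). With offsets and block together 6 were called, Aldh1a2 in addition, against 35.6% of all genes (16.3% higher and 19.3% lower). DESeq2 called 3, with Stra6 beside Lrat and Aldh1a1, against 27.0% of the genes it tested (12.2% higher and 14.8% lower). Under scaling by library size alone, 22.7% of calls over all genes were higher in GFP, against 45.5% with TMM. The median log2 fold change of the 9 genes was 0.06, and that of all genes tested was 0.004. No overlap between the fractions was seen for 4 of these 9, and for 48.6% of all genes.

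**Figure D1:**
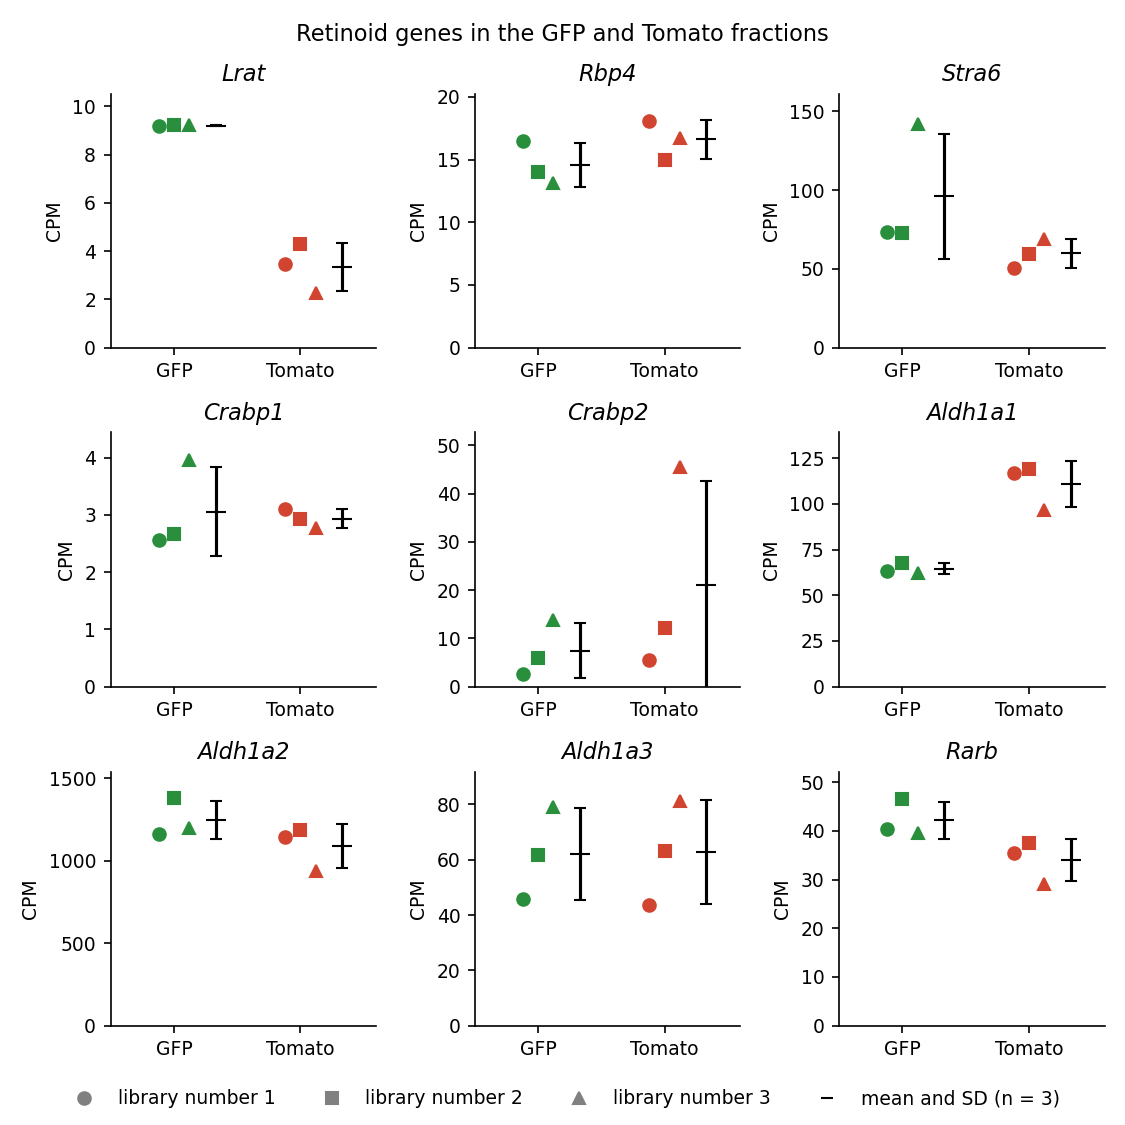
CPM of the 9 retinoid genes in each library (linear axes from 0), GFP left and Tomato right, with the symbol giving the library number and the black bar the mean and SD of 3 libraries (the Crabp2 bar in Tomato is cut at 0). The fractions do not overlap for Lrat, Stra6, Aldh1a1 and Rarb, while Crabp2 spans 2.56 to 45.6 CPM.

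Lrat (chromosome 3, 82892579 to 82903973, minus strand), the enzyme gene of retinol esterification, was low in both fractions and higher in GFP. It had 9.18, 9.22 and 9.22 CPM in GFP replicates 1 to 3, and 3.45, 4.30 and 2.28 CPM in Tomato replicates 1 to 3. Every GFP library stood above every Tomato library, and the GFP libraries were almost equal. The means were 9.21 ± 0.0221 CPM in GFP against 3.34 ± 1.01 CPM in Tomato (SD, n = 3 each). The log2 fold change was 1.46 ± 0.22 (SE, edgeR adjusted p = 0.00225), which is 2.75-fold. The difference rested on 309 to 341 reads per GFP library and 84 to 167 reads per Tomato library. Lrat was called in each leave-one-out fit, with adjusted p up to 0.0158, and under each other setting tried. Lymphatic endothelial markers and 6 of 11 fibroblast markers were higher in the same libraries, as given above. Of 16 stellate cell markers, 7 were higher and 2 lower in GFP (4 and 3 under scaling by library size alone). Over all genes tested 13.1% were higher and 15.7% lower. The list holds Lrat and also Reln, a gene shared with lymphatic endothelium. It shares Vim and Pdgfrb with the fibroblast list, and Des and Rgs5 with the pericyte and smooth muscle list. The lower markers were Gfap (log2 fold change -2.561, adjusted p = 0.00948) and Colec11 (-1.666, adjusted p = 0.0238). Summed levels of the list were 5163 to 5278 CPM in GFP against 3670.0 to 4259.6 CPM in Tomato. In bulk libraries, fewer cells of a type and less RNA per cell cannot be told apart.

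Stra6 (chromosome 9, 58063788 to 58153996), the gene of the receptor that takes up retinol from RBP4, had 73.4, 72.6 and 142 CPM in GFP replicates 1 to 3, and 50.5, 59.7 and 69.1 CPM in Tomato replicates 1 to 3. GFP replicate 3 stood far above the others, and the other GFP libraries were only just above the highest Tomato library. The log2 fold change was 0.69 ± 0.28 (adjusted p = 0.103), and without GFP replicate 3 it was 0.291 (adjusted p = 0.178). With the library number as a block Stra6 passed (0.62, adjusted p = 0.00879), as it did by DESeq2 (0.683, adjusted p = 0.025). Within each number GFP was higher, by 0.54, 0.28 and 1.04 on the log2 scale. Lymphatic endothelial markers, 7 of 12 general endothelial markers (1 was lower) and 6 of 11 fibroblast markers (0 were lower) were higher in the same GFP libraries. Their part in the values of Lrat and Stra6 was not tested.

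Rbp4 (chromosome 19, 38116629 to 38125281, minus strand), the gene of the plasma retinol carrier, had 16.5, 14.0 and 13.1 CPM in GFP replicates 1 to 3, and 18.1, 15.0 and 16.7 CPM in Tomato replicates 1 to 3. The fractions overlapped, and the log2 fold change of -0.19 ± 0.13 did not pass (adjusted p = 0.284). With offsets for transcript length and GC content the value was 0.031, so no direction is given for it.

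The ALDH1A genes encode the enzymes that make retinoic acid from retinal, and in both fractions Aldh1a2 stood far above Aldh1a1 and Aldh1a3. Aldh1a2 (chromosome 9, 71215789 to 71296243) was the main one. Per kilobase it had 514, 609 and 529.9 RPKM (CPM per kilobase of exon) in GFP replicates 1 to 3, and 506, 524 and 414 RPKM in Tomato replicates 1 to 3. It ranked 54 of 13904 protein-coding genes tested by mean RPKM over the 6 libraries, above 99.6% of them. Its share of the summed RPKM of the 3 ALDH1A genes was 95.4 ± 0.618% in GFP and 93.0 ± 1.09% in Tomato (SD, n = 3 each). In CPM, Aldh1a2 averaged 1247 ± 116 in GFP and 1089.5 ± 133 in Tomato, and the log2 fold change of 0.20 ± 0.13 did not pass (adjusted p = 0.288). In TMM-scaled CPM, GFP was higher within each number, by 0.02, 0.22 and 0.36 on the log2 scale. Aldh1a2 passed in the fit with the library number as a block and offsets for length and GC content (0.383, adjusted p = 0.0182). It did not pass with the block alone (adjusted p = 0.163), and under scaling by library size alone it was at 0.032 (adjusted p = 0.862).

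Aldh1a1 (chromosome 19, 20492715 to 20643465) fell in GFP. It had 63.2, 67.8 and 62.3 CPM in GFP replicates 1 to 3, and 117, 119 and 96.6 CPM in Tomato replicates 1 to 3. The fractions stood well apart, with the lowest Tomato library far above the highest GFP library. The means of 64.4 ± 2.93 CPM in GFP against 111 ± 12.2 CPM in Tomato (SD, n = 3 each) gave a log2 fold change of -0.78 ± 0.10 (adjusted p = 0.00132), so that Tomato was 1.72-fold above GFP. It was called in each leave-one-out fit, with values from -0.877 to -0.728 and adjusted p up to 0.00919. Its share of the ALDH1A sum was 2.39, 2.16 and 2.26% in GFP and 4.38, 4.28 and 4.34% in Tomato, with no overlap (exact two-sided permutation test p = 0.1, the smallest that 3 against 3 libraries allow). Aldh1a7, a close copy of Aldh1a1 in mice, could share reads with it. Aldh1a7 had 0, 0 and 5 reads in GFP and 12, 19 and 18 reads in Tomato. It passed the filter on low counts through the Tomato libraries alone, so no fold change is given for it. Its part in the Aldh1a1 value was not tested. Most of the mesothelial, macrophage and epithelial markers tested were lower in the same GFP libraries.

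Aldh1a3 (chromosome 7, 66390890 to 66427517, minus strand) varied with the library number more than with the fraction. It had 45.7, 61.7 and 79.1 CPM in GFP replicates 1 to 3, and 43.7, 63.3 and 81.4 CPM in Tomato replicates 1 to 3. Libraries of equal number differed by 0.06, -0.04 and -0.04 on the log2 scale (GFP over Tomato), while those of 1 fraction spread over a wide range. The log2 fold change was -0.01 ± 0.27 (adjusted p = 0.972), and its sign turned when GFP replicate 1 (0.168) or Tomato replicate 3 (0.208) was left out. Summed over the 3 ALDH1A genes, RPKM averaged 577 ± 52.5 in GFP and 517 ± 58.3 in Tomato, a difference within the spread (exact two-sided permutation test p = 0.5, n = 3 each).

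**Figure D2:**
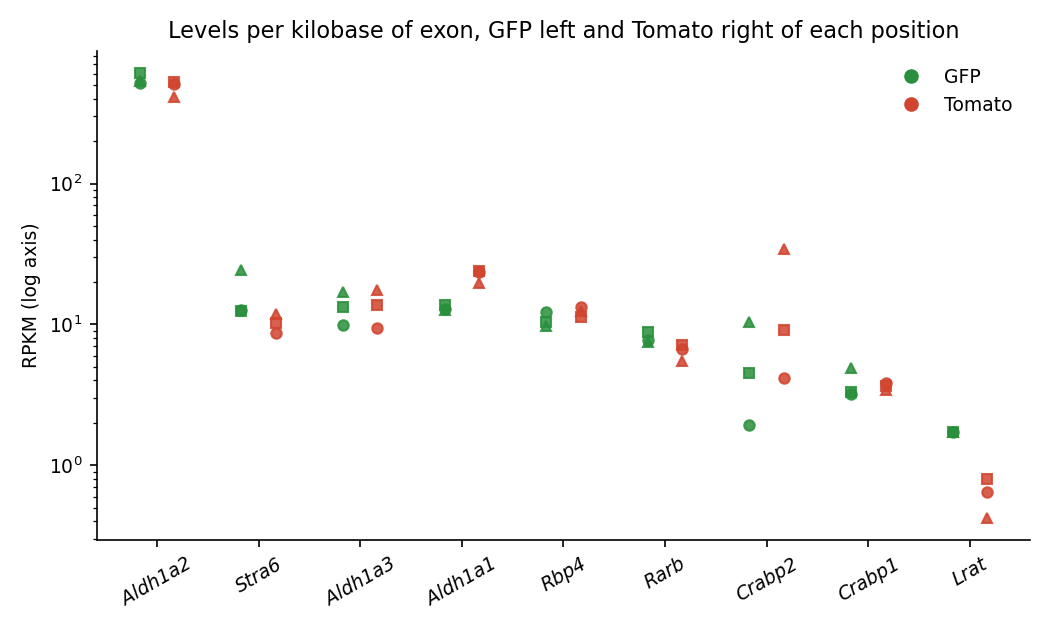
RPKM of the 9 retinoid genes in each library on a log axis, ordered by the GFP mean, with GFP points left and Tomato points right of each position. Aldh1a2 at 414 to 609 RPKM stands far above the other 8 genes in both fractions, and Lrat is lowest in both.

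Per kilobase, the order of levels in GFP was Aldh1a2 (551 RPKM), Stra6 (16.5), Aldh1a3 (13.5), Aldh1a1 (13.1), Rbp4 (10.8), Rarb (8.02), Crabp2 (5.63), Crabp1 (3.81) and Lrat (1.72). In Tomato it was Aldh1a2 (481 RPKM), Aldh1a1 (22.4), Crabp2 (15.9), Aldh1a3 (13.6), Rbp4 (12.3), Stra6 (10.3), Rarb (6.46), Crabp1 (3.66) and Lrat (0.625). Aldh1a2 at the top and Lrat at the bottom were clear of their neighbours in both fractions. Ranges of neighbours overlapped in GFP between Stra6, Aldh1a3 and Aldh1a1 in turn, and between Rarb, Crabp2 and Crabp1. In Tomato they overlapped for each step from Aldh1a1 to Stra6.

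The CRABP genes encode the cytosolic carriers of retinoic acid: CRABP2 hands it to the nuclear receptors, and CRABP1 is linked to its breakdown. Crabp2 (chromosome 3, 87948666 to 87953376) was the most variable of the 9 genes. It had 2.56, 6.00 and 13.8 CPM in GFP replicates 1 to 3, and 5.48, 12.1 and 45.6 CPM in Tomato replicates 1 to 3. The fractions overlapped, but within each number GFP was lower, with log2 ratios of GFP over Tomato of -1.10, -1.01 and -1.73. Without a block the log2 fold change was -1.50 ± 0.86 (adjusted p = 0.228), and it was -0.248 (adjusted p = 0.87) without Tomato replicate 3 and -2.30 (adjusted p = 0.126) without GFP replicate 3. With the library number as a block Crabp2 fell by 1.32 on the log2 scale (edgeR adjusted p = 0.000393). Crabp1 (chromosome 9, 54764748 to 54773110) had 2.56, 2.66 and 3.95 CPM in GFP replicates 1 to 3, and 3.10, 2.93 and 2.77 CPM in Tomato replicates 1 to 3. The fractions overlapped (log2 fold change 0.06 ± 0.22, adjusted p = 0.862), its 89 to 140 reads per library give little precision, and its sign turned to -0.104 under scaling by library size alone. The share of Crabp2 in the RPKM sum of both CRABP genes was 37.8, 57.8 and 67.9% in GFP and 51.7, 71.4 and 90.9% in Tomato, for replicates 1 to 3. The fractions overlapped (exact two-sided permutation test without pairing, p = 0.4), and the share was lower in GFP within each of the 3 numbers.

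Rarb (chromosome 14, 16430839 to 16819156, minus strand), whose repeat is printed above, had 40.5, 46.6 and 39.5 CPM in GFP replicates 1 to 3, and 35.4, 37.6 and 29.1 CPM in Tomato replicates 1 to 3. The fractions did not overlap, though the lowest GFP and the highest Tomato library lay close together. The log2 fold change of 0.31 ± 0.12 did not pass (adjusted p = 0.0816), and it did with the library number as a block (0.31, adjusted p = 0.0175). It was 0.147 under scaling by library size alone, under which the median of all genes tested was -0.162. Exons of Rarb overlap those of Top2b on the other strand over 1793 bases of the annotation. The counts of the strand columns of Rarb summed to 8518 over the 6 libraries, the same as the column for both strands, so the strand setting moved no Rarb read. Top2b, which encodes a topoisomerase, was itself higher in GFP (log2 fold change 0.41 ± 0.11, adjusted p = 0.0252), and its part in the Rarb value was not tested. Cyp26a1, the other gene with the element, had 7.49, 9.85 and 13.1 CPM in GFP replicates 1 to 3 and 7.63, 17.4 and 28.4 CPM in Tomato replicates 1 to 3. Its log2 fold change was -0.81 ± 0.45 (adjusted p = 0.209), and it fell by 0.68 with the library number as a block (adjusted p = 0.0242), though not with length and GC offsets as well (-0.52, adjusted p = 0.0744).

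**Figure D3:**
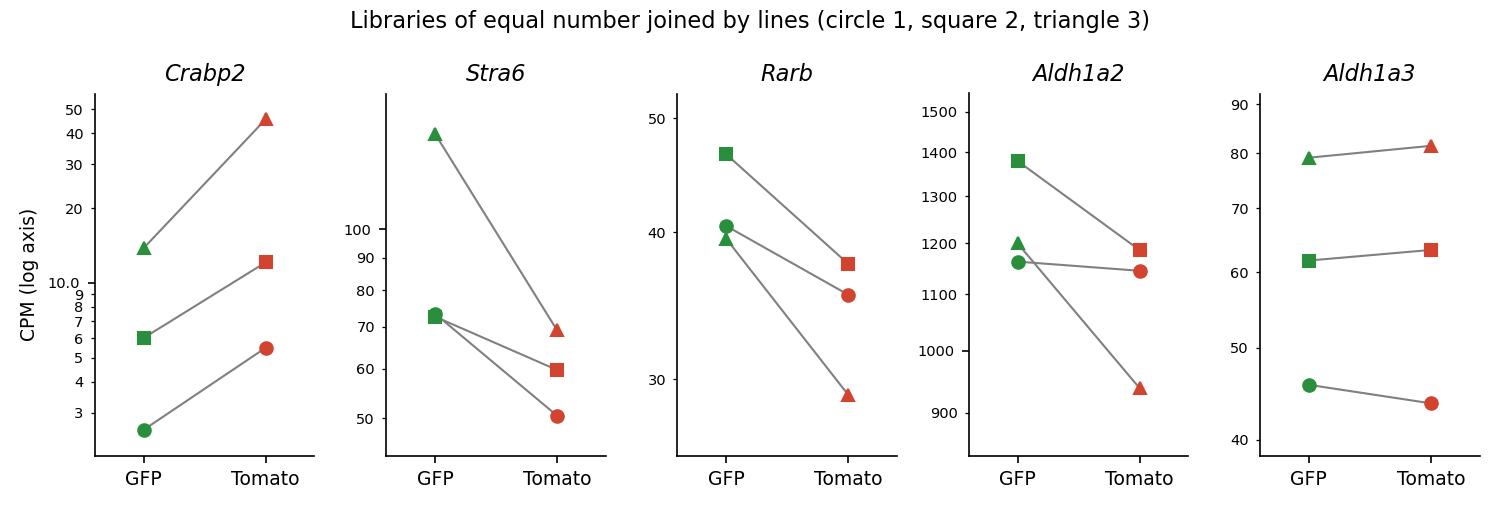
CPM (log axes, a scale per panel) of 5 retinoid genes, GFP left and Tomato right, with lines joining libraries of equal number (circle 1, square 2, triangle 3). Crabp2 is lower and Stra6, Rarb and Aldh1a2 are higher in GFP along each line, while the Aldh1a3 lines are nearly flat.

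Within the 3 pairs of equal number, 4 of the 9 genes were higher in GFP each time (Lrat, Stra6, Aldh1a2 and Rarb) and 3 were lower each time (Rbp4, Crabp2 and Aldh1a1), as computed from TMM-scaled CPM without length and GC offsets, under which the fitted sign of Rbp4 turned. Across all genes tested, 69.3% had 1 direction in all pairs, so 7 of 9 is close to the background.

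**Figure D4:**
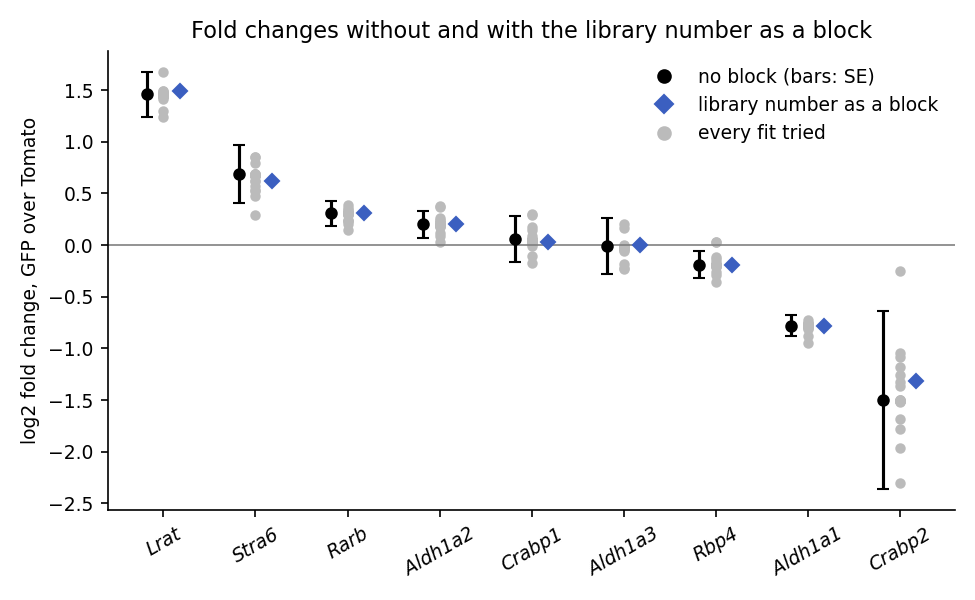
Log2 fold changes, GFP over Tomato, of the 9 retinoid genes, with black points and SE bars for the fit without a block, blue diamonds for the library number as a block and grey points for every fit tried. Lrat at 1.46 and Aldh1a1 at -0.78 keep clear of 0 in each fit, while Crabp2 runs from -2.30 to -0.248.

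The other genes of retinoid handling were taken from a list of 82, of which 59 were tested. In GFP 14 were higher and 19 lower, and 26 did not pass, against 13.1% higher and 15.7% lower over all genes tested, with a median log2 fold change of -0.15 against 0.004 over all genes tested. The split moved with the scaling, to 6 higher and 24 lower under scaling by library size alone, and to 6 and 14 with length and GC offsets. It was 18 and 26 with the library number as a block, 12 and 20 with block and offsets together, and 17 and 20 by DESeq2. Over all genes tested, 20.1% were higher and 20.9% lower with the block. Under scaling by library size alone, 1128 of 15608 were higher and 3851 lower. The count of calls fell from 33 to 14, 19 and 16 without GFP replicate 1, GFP replicate 3 and Tomato replicate 2. Calls over all genes tested fell in the same fits, from 4505 to 2300, 2746 and 2361. Of the 28 genes that the naming rule took by their calls, 12 were called in each leave-one-out fit, among them Fabp5, Stra6l, Lpl, Dgat1, Dhrs9, Cyp2s1, Pmepa1, Hic1, Rarres1 and Tgm2. The 16 others lost their call in at least 1 such fit, and each of the 6 libraries ended at least 1 call.

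Among genes of uptake and binding, 4 of 6 tested were lower in GFP and none higher (5 lower with the library number as a block). Of all genes tested, 15.7% were lower, and 20.9% with the block. Fabp5, a fatty acid carrier that can also bring retinoic acid to the receptor PPARD, had 7.89, 7.76 and 6.03 CPM in GFP against 21.7, 21.8 and 27.8 CPM in Tomato (a log2 change of -1.72 ± 0.15, adjusted p = 0.000241). Lrp2, which encodes megalin, the endocytic receptor that recovers RBP4 in the kidney, averaged 0.192 ± 0.147 CPM in GFP against 6.04 ± 1.58 CPM in Tomato. It had 0.0269, 0.239 and 0.31 CPM in GFP replicates 1 to 3, the first below the level of 3 reads. Lrp2 passed the filter on low counts only through the Tomato libraries, so no fold change is given for it, though the 4 lower genes include it. Stra6l, a relative of Stra6, was lower as well (-1.85, adjusted p = 0.00848), at 0.427 CPM in GFP against 1.54 CPM in Tomato. Rbp3 had no read in any library.

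Genes of ester storage and release went both ways, with 2 of 7 tested higher and 2 lower in GFP (2 and 4 with the library number as a block or under scaling by library size alone). The shares over all genes tested were 13.1% higher and 15.7% lower without a block. Dgat1, an acyltransferase that can also esterify retinol, averaged 47.2 ± 5.80 CPM in GFP against 32.6 ± 2.62 CPM in Tomato (a log2 change of 0.54 ± 0.12, adjusted p = 0.0116). Lpl, the lipoprotein lipase gene, averaged 502 ± 93.0 CPM in GFP against 289 ± 18.8 CPM in Tomato (0.80 ± 0.14, adjusted p = 0.00514). The lower genes were the droplet coat gene Plin2 (-0.63, adjusted p = 0.0129), whose call was lost when GFP replicate 1 or Tomato replicate 2 was left out, and the lipase gene Pnpla2 (-0.56, adjusted p = 0.016), whose call was lost without Tomato replicate 2. Bco2, which cleaves carotenoids, was under 1 CPM in every library and fell in GFP (log2 fold change -0.91, adjusted p = 0.0375), a call lost in each leave-one-out fit.

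Among retinol dehydrogenases, none of 9 tested was higher and 2 were lower in GFP (4 with the library number as a block). The lower share over all genes tested was 15.7%, and 20.9% with the block. Rdh10, a main enzyme of retinol oxidation, had 386, 350.3 and 323 CPM in GFP and 351, 323 and 299 CPM in Tomato, ranges that overlapped (0.12 ± 0.11, adjusted p = 0.418). The lower genes were Adh5 (-0.50, adjusted p = 0.0187), known mostly for clearing formaldehyde, and Rdh12 (-1.21, adjusted p = 0.0269), at 0.827 CPM in GFP against 1.92 CPM in Tomato. Their calls were lost in 3 and 4 of the 6 leave-one-out fits. Rdh7, Rdh9 and Sdr16c5 had no read in any library.

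In the list of retinal reductases, 3 of 4 tested were lower in GFP, against 15.7% of all genes tested. Dhrs9, which acts as a retinol-oxidising enzyme although it stood in this list, had 3.39, 3.58 and 3.61 CPM in GFP and 33.6, 32.7 and 27.6 CPM in Tomato, with the fractions far apart (-3.15 ± 0.12, adjusted p = 4.29e-06). Dhrs4 (-0.36, adjusted p = 0.0268) and Akr1b10 (-0.32, adjusted p = 0.0385) lost their calls with length and GC offsets (adjusted p = 0.205 and 0.0777). Dhrs3, a reductase that turns retinal back into retinol and a known retinoic acid target, averaged 232 ± 44.0 CPM in GFP and 199 ± 21.4 CPM in Tomato and did not pass (0.22 ± 0.14, adjusted p = 0.272), though it did with the block and length and GC offsets together (0.30, adjusted p = 0.0236). Per kilobase, Rdh10 averaged 84.8 RPKM in GFP and 78.0 RPKM in Tomato, and Dhrs3 79.4 RPKM in GFP and 68.2 RPKM in Tomato, both under Aldh1a2 and above each of the other 8 retinoid genes. Aox1 was the 1 gene tested among other retinal oxidases, and it did not pass (0.36, adjusted p = 0.164).

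Of 4 genes of retinoic acid breakdown tested, 1 was higher and 2 lower in GFP (1 and 3 with the library number as a block, 0 and 2 under scaling by library size alone). All genes tested gave 13.1% higher and 15.7% lower without a block. Cyp2s1, a cytochrome P450 gene of epithelia, had 4.52, 3.97 and 6.14 CPM in GFP against 27.5, 27.9 and 26.3 CPM in Tomato (-2.48 ± 0.16, adjusted p = 4.99e-05). Cyp26b1, a dedicated retinoic acid hydroxylase, had 7.24, 10.3 and 7.69 CPM in GFP against 5.30, 6.33 and 3.91 CPM in Tomato (0.70 ± 0.21, adjusted p = 0.0388), a call lost in 5 of the 6 leave-one-out fits, under scaling by library size alone (adjusted p = 0.0747) and with length and GC offsets (0.0797). Ugt2b34, a glucuronosyltransferase gene, was lower (-0.84, adjusted p = 0.0254) at 1.05 CPM in GFP against 1.89 CPM in Tomato, a call also lost in 5 of the 6 leave-one-out fits (adjusted p up to 0.0826).

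**Figure D5:**
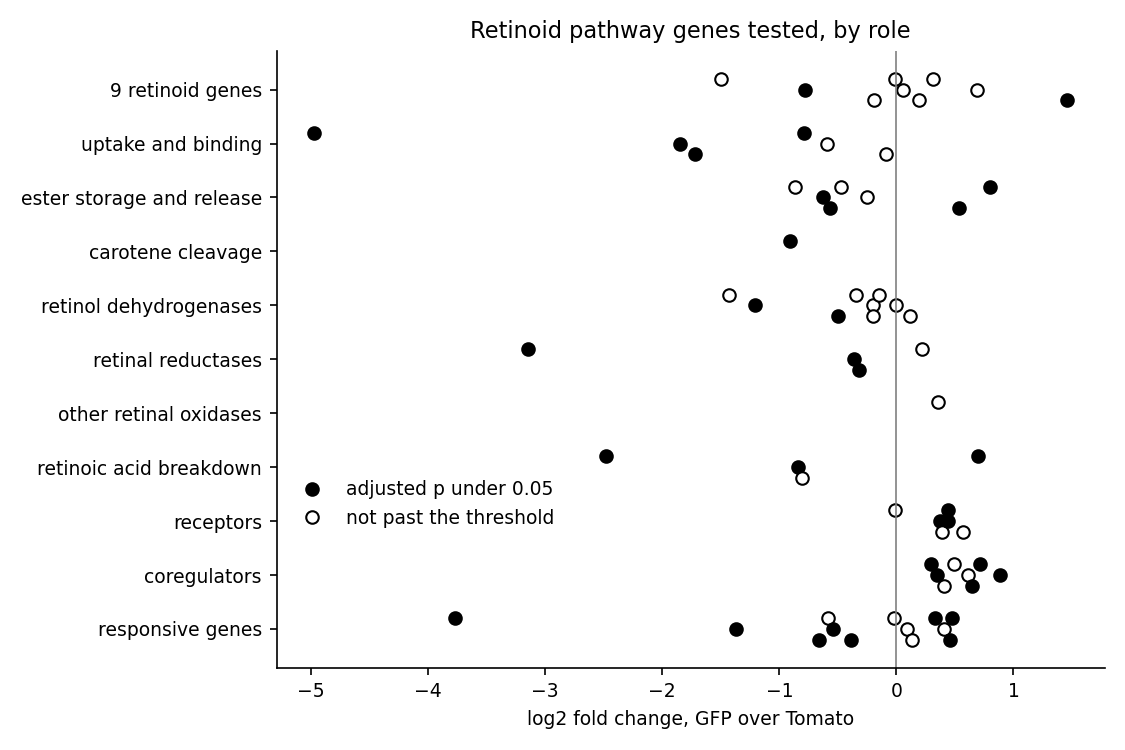
Log2 fold change, GFP over Tomato, of each retinoid pathway gene tested, in rows by role, with filled points past an adjusted p of 0.05 (edgeR, no block) and points set apart vertically for legibility. Lrp2, Rarres1 (-3.77), Dhrs9 (-3.15) and Cyp2s1 (-2.48) lie farthest to the left, and receptors and coregulators lie above 0 except Rxrb at -0.02 (with length and GC offsets, Tle3 also lies just below 0). The value of Lrp2 is not given, since it passed the filter on low counts only through the Tomato libraries.

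Of 6 receptor genes, 3 were higher in GFP without a block, namely Rara, Rarg and Rxra, with 4 called as higher when the library number was a block and 3 with block and length and GC offsets together. None of the 6 was called under scaling by library size alone or with these offsets and no block. Over all genes tested 13.1% were higher without a block, 20.1% with it and 16.3% with block and offsets. Under scaling by library size alone 1128 of 15608 were higher, and 1520 with the offsets and no block. Rara, the widely expressed retinoic acid receptor, had 57.7, 58.9 and 55.3 CPM in GFP against 48.2, 42.6 and 42.4 CPM in Tomato (0.37 ± 0.09, adjusted p = 0.0181). Rarg had 46.8, 48.3 and 45.8 CPM in GFP against 40.6, 32.4 and 31.0 CPM in Tomato (0.44 ± 0.12, adjusted p = 0.0239), and Rxra, the common partner receptor, averaged 52.8 ± 3.92 CPM in GFP against 38.8 ± 7.21 CPM in Tomato (0.44 ± 0.14, adjusted p = 0.0405). The fractions did not overlap for these 3 genes, nor did they for 48.6% of all genes tested. The call of Rara was lost when GFP replicate 1, GFP replicate 2 or Tomato replicate 2 was left out (adjusted p up to 0.0791), and those of Rarg and Rxra when any library but Tomato replicate 1 was (up to 0.095 and 0.13). Rxrb (-0.02, adjusted p = 0.915) and Rxrg (0.39, adjusted p = 0.548), whose level was below 1 CPM throughout, did not pass. Per kilobase, Rara averaged 13.1 RPKM in GFP and 10.2 RPKM in Tomato, Rarg 11.0 and 8.13 RPKM, and Rarb 8.02 and 6.46 RPKM.

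Of 8 coregulator genes, 5 were higher and none lower in GFP, with 8 higher when the library number was a block and 3 under scaling by library size alone or with length and GC offsets. Over all genes tested 13.1% were higher, 20.1% with the block and 9.74% with the offsets. Nrip1, a corepressor gene induced by retinoic acid, averaged 107 ± 16.4 CPM in GFP against 68.0 ± 13.1 CPM in Tomato (0.65 ± 0.16, adjusted p = 0.0204). Its call was lost when GFP replicate 1, GFP replicate 3 or Tomato replicate 2 was left out (adjusted p up to 0.0732). Pmepa1 (0.71 ± 0.12, adjusted p = 0.0036) stood in the list but is known chiefly as a target and inhibitor of TGF-beta signalling.

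Genes known to respond to retinoic acid in other settings had no common direction, with 3 of 13 tested higher and 5 lower in GFP (3 and 6 with the library number as a block, 1 and 6 under scaling by library size alone). By comparison, 13.1% of all genes tested were higher and 15.7% lower without a block. Rarres1, named for its induction by retinoids in human skin, had 0.673, 1.85 and 2.71 CPM in GFP against 18.4, 26.0 and 26.6 CPM in Tomato (-3.77 ± 0.42, adjusted p = 0.00131). Tgm2, the gene of tissue transglutaminase, averaged 203 ± 13.2 CPM in GFP against 296 ± 22.6 CPM in Tomato (-0.54 ± 0.10, adjusted p = 0.00551), and Itga4, an integrin gene of white blood cells, was lower at 0.403 CPM in GFP against 1.05 CPM in Tomato (-1.37, adjusted p = 0.0178). The Itga4 call was lost when any GFP library was left out (adjusted p up to 0.0618). Rarres2, which encodes the chemoattractant chemerin, was lower by less (-0.38 ± 0.12, adjusted p = 0.0375), a call lost in 5 of the 6 leave-one-out fits and with length and GC offsets (adjusted p = 0.164). The higher genes included the transcription factor genes Hic1 (0.47, adjusted p = 0.0121) and Tshz1 (0.46, adjusted p = 0.0131). With length and GC offsets Hic1 was at 0.20 (adjusted p = 0.125), and the Tshz1 call was lost without GFP replicate 1 (adjusted p = 0.052). Most of the macrophage, mesothelial and epithelial markers tested were lower in the same GFP libraries in which Dhrs9, Cyp2s1, Lrp2, Fabp5 and Rarres1 were lower. The part of these markers in these falls was not tested.

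The genes most like each retinoid gene were sought among protein-coding genes with a mean of at least 5 CPM, by Pearson's correlation of log2(CPM + 1) over the 6 libraries. With 6 points and 10400 genes compared, high values are common, and they are given as a description. The 3 closest were Csnk1g2, Rfng and Atg9a for Lrat (0.9962 to 0.9967), Rngtt, Gpc1 and Gtf2ird1 for Stra6 (0.9767 to 0.9933) and Fbxl5, Ninl and Calcoco1 for Rbp4 (0.9689 to 0.9866). They were Cd200, Pdp1 and Rspo1 for Aldh1a1 (0.9961 to 0.9976), Rab11b, Tbxa2r and C1qtnf2 for Aldh1a2 (0.9956 to 0.9967) and Adipor1, Tpm1 and Mlf2 for Aldh1a3 (0.9887 to 0.9944). For Crabp2 they were Josd2, Elavl1 and Pold2 (0.9915 to 0.9931), for Rarb Ifi207, Klhl9 and Cyb5r3 (0.994 to 0.9974), and for Crabp1 Tcp11l1, Ccdc80 and 4930579G24Rik (0.9484 to 0.9674). A correlation of at least 0.95 was reached by 399 genes for Lrat and by 2 for Crabp1.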

How the data were processed

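RNA was sequenced from 6 libraries of sorted cells, each made from 150 ng of RNA by the TruSeq protocol, per the labels' protocols. The authors deposited raw counts per gene, for both strands together and for each strand, per the file headers. The submitters' processing notes name Trim Galore 0.4.3, STAR 2.5.2b and GRCm38, while annotation release and filters are not given in the sources used here. Counts over both strands were analysed, since the strand columns were nearly equal (ratio 1.0022 to 1.0063), so reads of overlapping genes on opposite strands cannot be told apart by strand. Of 49671 identifiers 49412 matched GENCODE M21 (GRCm38), which gave symbols, positions and exon lengths.

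GFP was compared with Tomato by edgeR 4.0.16 (R 4.3.3): quasi-likelihood F test with robust estimation, two-sided, TMM scaling, filterByExpr and no block, Benjamini-Hochberg adjusted over 15608 genes. SE came from the fold change and F. Libraries of 1 fraction differed far beyond counting noise (chi-square over its degrees of freedom between 25.5 and 107), so none was a duplicate. Equal numbers deviated together (correlations 0.487, 0.21 and 0.422, against -0.46 to -0.027 for unequal ones), so numbers were treated as pairs, a choice that rests on these data since the labels do not state it, and the blocked fit is given where it changes the call of one of the 9 genes or the count of a pathway group. Deviations from a fraction mean cancel out for each gene, so the negative values of unequal numbers follow in part from the positive ones. The fit was tested on simulated data.

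The genes and lists were chosen with earlier results of these data known. Named were the 9 genes, per role the up to 3 genes higher and 3 lower with the smallest adjusted p, a fixed set of 13 core genes, and the 3 genes most like each of the 9. Alternatives were other scalings, filters and tools (DESeq2 1.42.0, limma 3.58.1 voom), the block, spline offsets (4 degrees of freedom) for length and GC content, a single strand column, a threshold of 0.01 and leaving out each library. The sum of both strand columns was added after the data were seen. Some genes under this rule are not reported here.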

Additional observations from a re-analysis of the deposited data

How the results depend on the processing

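Of 260 values recomputed under other settings, 231 kept their direction and their side of the threshold, or stayed within the limit set for counts and shares. Lrat and Aldh1a1 did so in each setting. With the library number as a block the calls gained were Stra6 (0.624), Crabp2 (-1.321) and Rarb (0.314), and with length and GC offsets as well they were Stra6 (0.477), Crabp2 (-1.042), Rarb (0.239) and Aldh1a2 (0.383), so that 5 and 6 of the 9 genes were called. The block changed no other call among the 9. DESeq2 called Stra6 too (0.683). The sign of Crabp1 turned under scaling by library size alone (-0.104) and with a single strand column (-0.007), and that of Rbp4 with length and GC offsets without (0.031) and with the block (0.027). The cause was not tested. Other pathway genes called were 20 with length and GC offsets and 11 at a threshold of 0.01, at which 1661 of all genes were called, against 4505 at 0.05. Without a length scale the difference in share, GFP minus Tomato, was -4.06 points for Aldh1a1 and 4.62 for Aldh1a2, against -2.07 and 2.43 per kilobase, by construction.

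Leaving out each library in turn gave 2300 to 5185 calls over all genes, 14 to 36 over the pathway genes and 2 of the 9 genes each time. Log2 fold changes ran from -0.227 to 0.208 for Aldh1a3 and from -0.17 to 0.172 for Crabp1, and the Aldh1a3 share difference from -0.838 to 0.236 points. The summed strand columns, chosen after seeing the data, changed no call among the 9 genes. Over all 6 libraries Crabp1 and Lrat had the fewest reads, 84 to 341 per library, while Crabp2 had as few as 95 in 1 GFP library, and intervals from reads cover counting error only.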

Other observations

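The 3 GFP libraries agreed on Lrat more closely than the average spread that counting error gives. Their coefficient of variation was 0.24%, while counting error alone gives 5.54% at that depth, and it was 30.3% in Tomato, where counting error gives 8.67%. The SE of the fold change comes from the fit across all genes and is not lowered to that agreement. The value was picked from those of 9 genes in both fractions, and whether so small a spread arose by chance was not tested.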
